A study of Homo sapiens with 6 samples.

Results

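The genes described here make, carry, sense and break down eicosanoids, the signalling lipids cut from membrane arachidonic acid, in a gastric cancer line given a cyclooxygenase inhibitor. Of 47 listed genes, 42 were analysed, among 18417 genes of the array with exactly 1 gene symbol. Each was read by the transcript cluster whose platform annotation gives that symbol alone, and none of the 42 had a choice of clusters. PLA2G4B, PLA2G12A and LTC4S lay only on clusters with several symbols and were left out, and LTB4R and LTB4R2 were not analysed here.

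Phospholipases release arachidonic acid, and the cyclooxygenases PTGS1 (COX-1) and PTGS2 (COX-2) turn it into prostaglandin H2, from which separate synthases make prostaglandins E2, D2 and I2 and thromboxane. Lipoxygenases start the leukotriene route from the same fatty acid, and cytochrome P450 enzymes make epoxides that epoxide hydrolases open. Prostaglandin E2 protects the normal stomach lining, and COX-2 is a known product of many gastric carcinomas and the intended target of celecoxib.

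AGS, a widely used gastric carcinoma cell line, was exposed to 20 µM celecoxib for 24 h (3 arrays) or belonged to controls labelled as given none (3 arrays), after 48 h of growth. RNA was hybridised to HuGene-1_0-st arrays and is given as log2 expression, so a difference of 1 is a doubling. The drug was dissolved in DMSO, and the sources used here do not say whether the controls received DMSO. The labels call the arrays biological replicates but also mention pooling after the RNA check, so the p-values cover array-to-array variation that is possibly technical alone.

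The arrays were closely alike, with Pearson's r across transcript clusters between 0.985 and 0.996 for every pair. Celecoxib array 1 stood furthest out on the first principal component, at 23.93, with the other 5 arrays between -16.42 and 2.70. It held the highest value of 27.4% of all genes and of 11 of the 42 eicosanoid genes. Control array 3 was highest in 13 of the 42, beside 20.1% of all genes. Celecoxib array 2 was lowest in 12 of the 42, beside 20.1% of all genes. The median of the 42 was 6.49 on celecoxib array 2 and between 6.67 and 6.75 on the others. All 9 epithelial markers checked, among them EPCAM and KRT8, lay at means between 7.93 and 12.54.

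Which steps of the pathway had signal above sets of background genes was asked first. Scanner files were not used here, so each gene was set beside 361 olfactory receptor genes, which a gastric line is not known to express. Their 95th percentile was 6.32, and a mean above it is called above the olfactory receptor range. Of the 42 genes, 24 (57.1%) were above this range, against 67.9% of all genes. Against the 68 keratin-associated protein genes of hair, another set not known from the stomach, the 95th percentile was 8.45, and 6 of the 42 (14.3%) were above it, against 27.7% of all genes. Those 6 were PLA2G2A, SLCO2A1, ABCC4, HPGD, PTGR1 and LTA4H, and PTGS2 (8.40) and PLA2G4A (8.44) fell just short. Above it were 0 of the cyclooxygenases, prostanoid synthases, prostanoid receptors, lipoxygenases and P450 or epoxide hydrolase genes. Some markers of other cell types, read further on, also passed the olfactory receptor line, so passing it does not establish expression. Values of different clusters come from different probes, so a higher value is not a larger amount of transcript, and a gene within the range may still be expressed at a low level. In bulk RNA, fewer cells with a transcript and less of it per cell cannot be told apart.

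**Figure D1:**
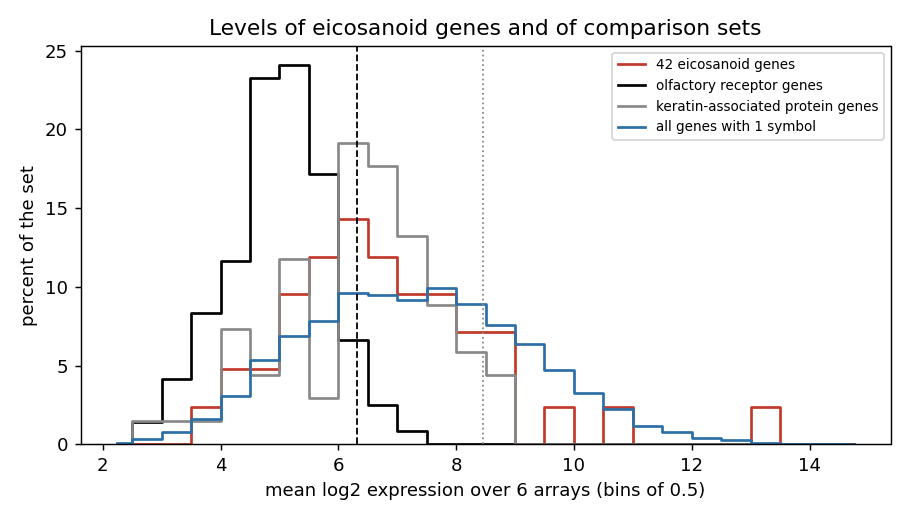
Share of each gene set, in percent, by mean log2 expression over the 6 arrays in bins of 0.5, for 42 eicosanoid genes, olfactory receptor genes, keratin-associated protein genes and all genes with 1 symbol. The dashed line marks 6.32 and the dotted line 8.45, the 95th percentiles of the olfactory receptor and keratin-associated sets. The eicosanoid genes spread from 3.86 to 13.25, with 24 of 42 right of the dashed line.

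Members close to the line carry the least certain call. PLA2G4F (6.38) and ALOX5AP (6.42) lay just above 6.32, and PLA2G6 (6.31), PTGS1 (6.23) and PTGER2 (6.22) just below. With each array held to its own 95th percentile, PLA2G4F and ALOX5AP did not pass on all 6 arrays, and the count was 22.

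Arachidonate release was the step with the brightest cluster. PLA2G2A, a secreted phospholipase of the gut epithelium, measured 13.32, 13.21 and 13.28 with celecoxib, against 13.25, 13.15 and 13.31 in controls. That is above 99.9% of all genes, and the groups overlapped. PLA2G4A, the calcium-driven cytosolic phospholipase that prefers arachidonate, measured 8.66, 8.46 and 8.40 with celecoxib, against 8.29, 8.33 and 8.48 in controls. PLA2G4F, a relative of it, measured 6.42, 6.43 and 6.20 with celecoxib, against 6.38, 6.32 and 6.52 in controls. In both genes the groups overlapped, and the differences were 0.14 ± 0.09 and -0.06 ± 0.09 (celecoxib minus control, SE from limma, n = 3 each). Without celecoxib array 1 that of PLA2G4A was 0.06. PLA2G4C (mean 5.55), PLA2G6 (6.31) and PLA2G10 (5.02) were within the olfactory receptor range.

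The 2 cyclooxygenases differed in position against that range. PTGS2, the inducible enzyme that celecoxib inhibits, measured 8.32, 8.48 and 8.38 with celecoxib, against 8.48, 8.36 and 8.39 in controls, above every olfactory receptor gene. PTGS1, the constitutive enzyme, measured 6.19, 6.28 and 6.18 with celecoxib, against 6.27, 6.19 and 6.25 in controls. It was below the 95th percentile of the same array on all 6 arrays, at a mean above 93.9% of the olfactory receptor genes. The groups overlapped in both genes, and the log2 differences were both -0.02, with 95% intervals from -0.19 to 0.16 for PTGS2 and from -0.18 to 0.14 for PTGS1.

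The 250 bases before the start of PTGS2 are shown because it is the enzyme the drug is aimed at, beside those of CBR1 and PTGER2, members whose differences are described further on (RefSeq, GRCh38.p14). PTGS2 is at chr1:186680424-186680673 on the minus strand, CBR1 at chr21:36069774-36070023 and PTGER2 at chr14:52314062-52314311, both on the plus strand. Capitals mark matches on either strand to 6 letter patterns: the antioxidant response element core TGACNNNGC, the cAMP response half-site TGACG, a C/EBP pattern TTNNGNAA, a TATA box TATAAA, a GC box GGGCGG and an E-box CACGTG.
PTGS2: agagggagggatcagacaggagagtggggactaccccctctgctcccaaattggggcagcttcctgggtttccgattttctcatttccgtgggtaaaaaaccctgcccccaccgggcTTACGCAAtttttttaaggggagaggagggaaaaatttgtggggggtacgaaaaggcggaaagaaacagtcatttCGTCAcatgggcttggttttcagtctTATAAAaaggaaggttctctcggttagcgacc
CBR1: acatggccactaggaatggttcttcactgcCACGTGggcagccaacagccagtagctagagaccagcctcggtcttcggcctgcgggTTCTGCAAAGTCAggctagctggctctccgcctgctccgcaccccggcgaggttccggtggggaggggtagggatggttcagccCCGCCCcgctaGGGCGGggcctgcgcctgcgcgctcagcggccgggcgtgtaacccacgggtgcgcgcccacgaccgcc
PTGER2: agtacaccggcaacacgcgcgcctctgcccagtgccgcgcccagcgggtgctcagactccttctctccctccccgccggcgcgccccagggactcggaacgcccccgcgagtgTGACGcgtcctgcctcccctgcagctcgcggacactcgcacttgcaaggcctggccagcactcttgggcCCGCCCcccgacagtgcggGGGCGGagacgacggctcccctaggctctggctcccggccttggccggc
In PTGS2 the letters hold a TATA box from -32 to -27 before the start, a cAMP response half-site on the minus strand from -58 to -54 and a C/EBP match from -133 to -126 that reads on both strands. CBR1 holds an antioxidant response element core on the minus strand from -159 to -151, which overlaps a C/EBP match from -163 to -156, and also an E-box and 2 GC boxes. PTGER2 holds a cAMP response half-site from -137 to -133 and 2 GC boxes. Promoters were matched for 32 of the 42 genes. The antioxidant core was in 8 of the 32 (25%), against 10.9% of 35116 promoters, and the cAMP half-site in 8 (25%), against 21.2%. Genes with the antioxidant core were ABCC4, ALOX5AP, CBR1, HPGDS, PLA2G2A, PTGES2, PTGS1 and TBXAS1. Apart from CBR1, their log2 differences (celecoxib minus control) ran from -0.128 (TBXAS1) to 0.045 (PTGES2). The C/EBP pattern was in 28.1% of the 32 against 33.2%, the TATA box in 15.6% against 10.7%, the GC box in 53.1% against 42.6% and the E-box in 6.25% against 6.34%. In 8 of the 32, PLA2G2A and TBXAS1 among them, the table's start is not the gene's outer bound. Over the other 24 the antioxidant core was in 6 (25%), against 11.2% of 24900 such promoters. These matches describe letters, and no binding was measured.

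Prostaglandin E2 synthases were the synthases above the range, together with PTGDS. PTGES, the microsomal synthase that acts with COX-2, measured 7.09, 7.10 and 7.12 with celecoxib, against 7.16, 7.06 and 7.25 in controls. PTGES2, a second E2 synthase, measured 7.55, 7.59 and 7.58 with celecoxib, against 7.54, 7.60 and 7.44 in controls. PTGDS, the lipocalin-type D2 synthase, measured 6.80, 6.54 and 6.65 with celecoxib, against 6.71, 6.74 and 6.72 in controls. In all 3 genes the groups overlapped. The blood-cell D2 synthase HPGDS (mean 4.11), the prostacyclin synthase PTGIS (5.27) and the thromboxane synthase TBXAS1 (6.05) were within the range. PTGES3, a co-chaperone also described as an E2 synthase and not on the member list, had a mean of 10.63 and a difference of -0.004 ± 0.086.

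All 6 transport and breakdown genes were above the range. SLCO2A1, the prostaglandin uptake carrier, measured 8.65, 8.58 and 8.59 with celecoxib, against 8.51, 8.57 and 8.52 in controls. ABCC4, an export pump for prostaglandins, measured 9.72, 9.82 and 9.75 with celecoxib, against 9.79, 9.83 and 9.75 in controls. HPGD, the dehydrogenase that inactivates prostaglandin E2, measured 8.69, 8.48 and 8.48 with celecoxib, against 8.68, 8.53 and 8.72 in controls. SLCO2A1 separated the groups by 0.075 ± 0.066, a difference near its standard error, and the other 2 overlapped. PTGR2, a reductase that acts after HPGD, measured 7.35, 7.45 and 7.14 with celecoxib, against 7.36, 7.65 and 7.32 in controls, again with overlap.

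Receptors above the range were PTGER1, PTGER4, PTGDR2, PTGIR and TBXA2R, 5 of 9. PTGER4 (EP4), which raises cAMP on prostaglandin E2, measured 7.21, 7.15 and 7.23 with celecoxib, against 7.07, 7.18 and 7.20 in controls. PTGDR2, a D2 receptor of leukocytes, measured 7.62, 7.52 and 7.65 with celecoxib, against 7.73, 7.65 and 7.77 in controls. PTGIR, the prostacyclin receptor, measured 6.83, 6.62 and 6.93 with celecoxib, against 6.88, 6.94 and 7.06 in controls. None of these 3 separated the groups. TBXA2R, the thromboxane receptor, measured 6.71, 6.45 and 6.77 with celecoxib, against 6.77, 6.77 and 6.62 in controls, with overlap as well. PTGER2 (6.22), PTGER3 (5.10), PTGDR (5.14) and PTGFR (4.62) were within the range by their means.

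On the leukotriene route, ALOX5 and LTA4H were above the range, and the measured receptors were not. ALOX5, the lipoxygenase that starts leukotriene synthesis, measured 7.76, 7.84 and 7.87 with celecoxib, against 7.91, 7.99 and 7.95 in controls. LTA4H, the hydrolase that makes leukotriene B4, measured 10.72, 10.63 and 10.68 with celecoxib, against 10.57, 10.46 and 10.59 in controls. ALOX5AP, the membrane partner that ALOX5 needs to use arachidonate in cells, measured 6.53, 6.15 and 6.41 with celecoxib, against 6.65, 6.41 and 6.34 in controls. The groups were apart in ALOX5 (all celecoxib values lower) and in LTA4H (all higher), and overlapped in ALOX5AP. The cysteinyl leukotriene receptors CYSLTR1 (mean 3.86) and CYSLTR2 (4.27) were among the dimmest genes of the list.

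ALOX5, ALOX5AP, HPGDS and TBXAS1 are known from leukocytes, so markers of other cells were read beside them. Of 8 measured leukocyte markers, 3 were above the olfactory receptor range and 0 above the keratin-associated range. CD68, SPI1 and TYROBP were the 3, while PTPRC, the pan-leukocyte antigen CD45, was at 4.01 with celecoxib and 3.95 in controls. The summed log2 level of the 8 lay between 49.82 and 50.88 in celecoxib arrays and between 50.14 and 51.71 in controls. Above the range were 0 of 3 mast cell, 1 of 5 platelet, 0 of 5 endothelial and 4 of 6 fibroblast markers, whose DCN and LUM were at means of 3.52 and 2.92. The summed level was 14.34 to 14.72 with celecoxib and 14.75 to 14.81 in controls for mast cell markers, 29.54 to 29.81 and 29.39 to 30.22 for platelet, 26.58 to 27.59 and 26.79 to 26.81 for endothelial, and 35.04 to 35.43 and 34.88 to 35.05 for fibroblast markers. All samples are of the AGS cell line, and any relation of these marker signals to the eicosanoid values was not tested.

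The other lipoxygenases have their best known roles outside the stomach. ALOX12B, an enzyme of the skin barrier, measured 6.98, 6.85 and 6.80 with celecoxib, against 6.89, 6.92 and 6.73 in controls. ALOX15B, a 15-lipoxygenase, measured 6.76, 6.79 and 6.87 with celecoxib, against 6.81, 6.95 and 6.73 in controls. Both were above the olfactory receptor range, with groups that overlapped and differences of 0.03 ± 0.08 and -0.02 ± 0.08. The platelet-type ALOX12 (5.89) and ALOX15 (5.81) were within it. Of the P450 and epoxide hydrolase genes, the microsomal hydrolase EPHX1 was above the range, at 8.04, 8.46 and 8.18 with celecoxib and 8.16, 8.20 and 7.91 in controls. EPHX2 (5.96), the soluble hydrolase, and the leukotriene hydroxylases CYP4F2 (4.95) and CYP4F3 (5.64), near-identical relatives that array probes separate poorly, were within it.

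**Figure D2:**
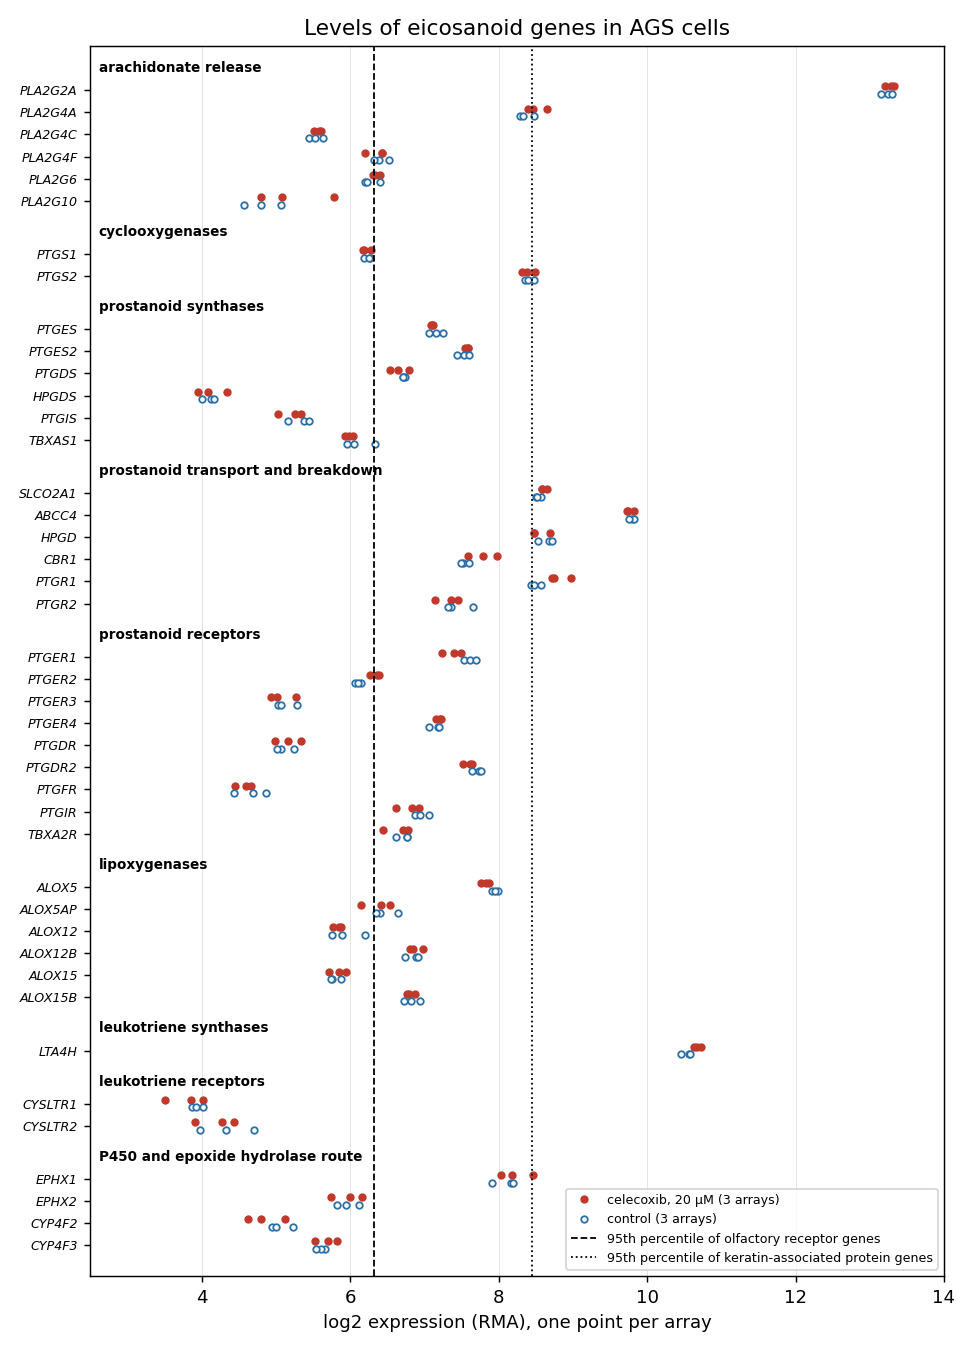
Log2 expression of the 42 eicosanoid genes by role, with 1 point per array, celecoxib filled and control open. The dashed line (6.32) and dotted line (8.45) are the 95th percentiles of olfactory receptor and keratin-associated genes. All 6 transport and breakdown genes lie right of the dashed line, PTGS2 does too, and PTGS1 lies left of it.

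The change with celecoxib was asked next, and no eicosanoid gene passed the test. At an adjusted p of 0.05 (limma, Benjamini-Hochberg over all 18417 genes), 0 of 42 were called, where 0.141% of all genes were. The smallest adjusted p was 0.285, for PTGR1. Unadjusted p was under 0.05 for 4 of the 42 (9.52%), 3 higher and 1 lower, where it was for 11.3% of all genes (6.87% higher and 4.44% lower). All celecoxib arrays lay above all control arrays in 4 of the 42 (9.52%) and below them in 2 (4.76%), beside 11.1% and 7.95% of all genes. Of the 42 differences 19 were positive and 23 negative, with a median of -0.02, and over all genes 47.9% were positive, with a median of -0.01. With all 6 arrays, these shares are near or under those of all genes. The counts of separated genes moved with single arrays, since fewer arrays separate more easily: 8 were lower (19%, beside 12% of all genes) without control 2, 5 without celecoxib 1 (11.9% beside 13.6%) or celecoxib 3 (11.9% beside 13.9%) and 4 without celecoxib 2 (9.52% beside 13.8%). Without celecoxib 2, 7 were higher (16.7% beside 16.9%). By role, values were higher in 5 of 6 arachidonate release genes (median 0.05), 3 of 6 transport and breakdown genes (0.02), 2 of 6 prostanoid synthases (-0.06), 3 of 9 prostanoid receptors (-0.07) and 2 of 6 lipoxygenases (-0.06).

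The intervals bound how large a change in measured signal the arrays allow. For 38 of the 42 genes (90.5%) the 95% interval of the difference lay within 0.5 on the log2 scale in both directions, which is 1.41-fold, as it did for 89.8% of all genes. For all 42 it lay within 1. Of the 38, 23 were above the olfactory receptor range and 15 were not. The signal of those 15 may be background, so their intervals do not bound a change in transcript. The exceptions at 0.5 were PLA2G10, PTGR1, CYSLTR2 and CYP4F2. PLA2G10, a secreted phospholipase, had the widest interval, from -0.13 to 0.95. Its values were 5.78, 4.80 and 5.08 with celecoxib, against 5.07, 4.80 and 4.57 in controls. Only celecoxib array 1 was above all controls by more than 0.1, and without that array the difference was 0.13 in place of 0.41.

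**Figure D3:**
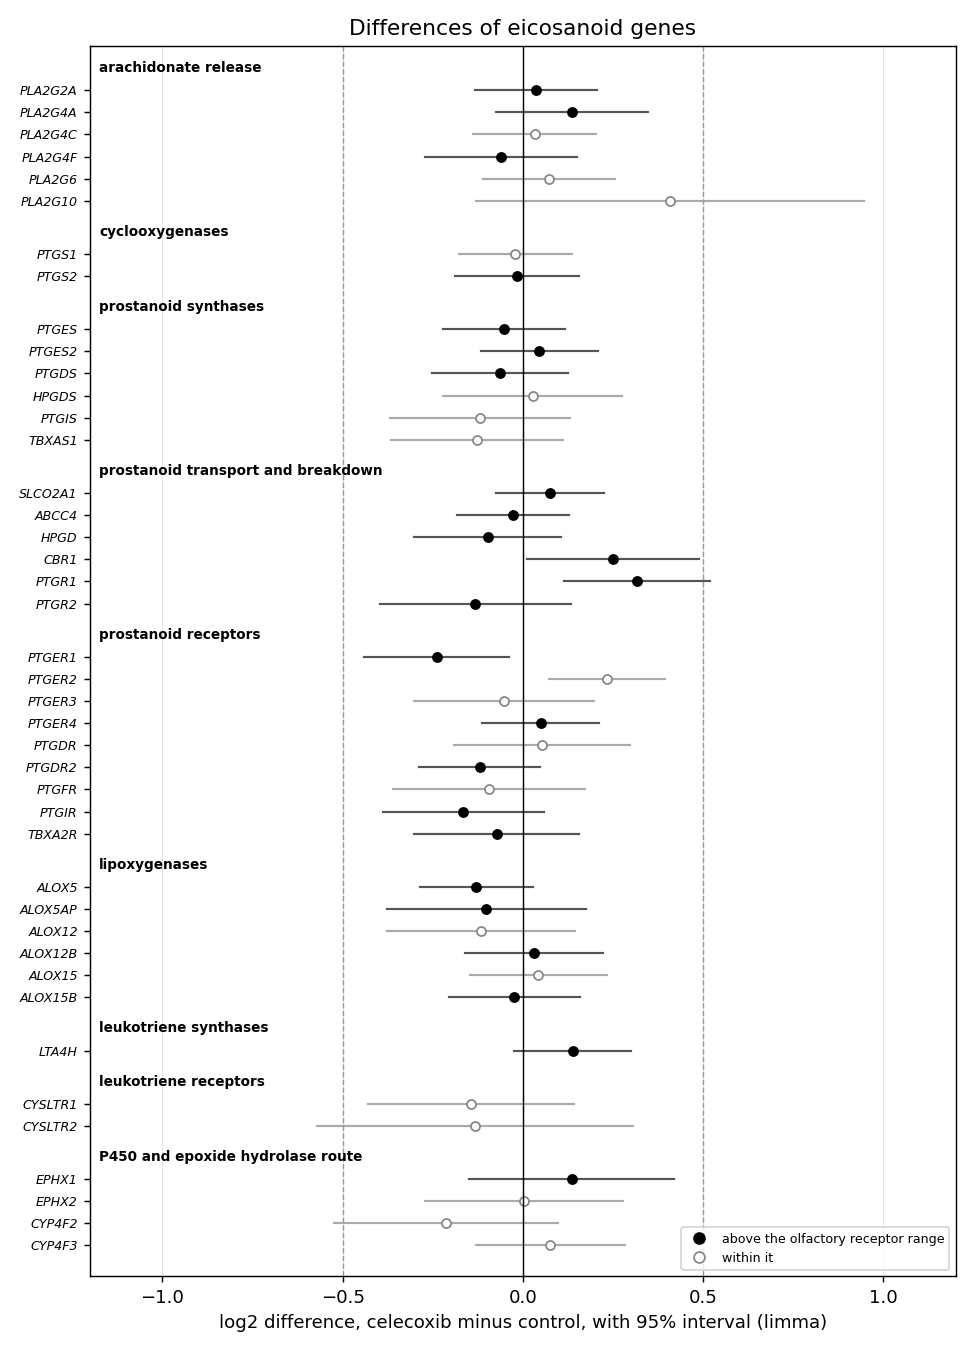
Log2 difference, celecoxib minus control, of each of the 42 genes with its 95% interval from limma (3 arrays per group). Filled points are genes above the olfactory receptor range, and dashed lines mark 0.5 in each direction. In 38 genes the interval stays between the dashed lines, and in PTGR1, CBR1, PTGER1 and PTGER2 it leaves out 0.

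The largest difference among genes above the range was in a breakdown enzyme. PTGR1, a reductase that inactivates prostaglandins and leukotriene B4 and is a known NRF2 target, measured 8.97, 8.72 and 8.75 with celecoxib, against 8.58, 8.44 and 8.47 in controls. All celecoxib values lay above all control values. Its difference was 0.32 ± 0.09 (SE, n = 3 each), or 1.25-fold, and did not pass (limma adjusted p = 0.285). Without celecoxib array 1, its highest, the difference was 0.24.

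CBR1, a carbonyl reductase that converts prostaglandin E2 to F2-alpha and is also a known NRF2 target, measured 7.98, 7.80 and 7.58 with celecoxib, against 7.51, 7.49 and 7.60 in controls. Celecoxib array 3 lay below the highest control, so the groups overlapped. The difference was 0.25 ± 0.10 (limma adjusted p = 0.428), and without celecoxib array 1 it was 0.15. The RefSeq start used for PTGR1 lies inside the gene's outer bounds, so its sequence is not shown, and its window held 0 matches to the antioxidant core or to the other patterns.

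Among the E2 receptors, EP2 and EP1 differed in opposite directions. PTGER2 (EP2), which raises cAMP, measured 6.26, 6.39 and 6.37 with celecoxib, against 6.07, 6.15 and 6.10 in controls. PTGER1 (EP1), which acts through calcium, measured 7.49, 7.24 and 7.40 with celecoxib, against 7.53, 7.62 and 7.70 in controls. Neither gene's groups overlapped. The differences were 0.23 ± 0.07 for PTGER2 (limma adjusted p = 0.318) and -0.24 ± 0.09 for PTGER1 (adjusted p = 0.379), and neither passed. PTGER2 was dim, and stood above its own array's olfactory receptor percentile on 2 celecoxib arrays and 0 control arrays. EP4 (PTGER4) differed by 0.05 ± 0.07 and EP3 (PTGER3) by -0.05 ± 0.11.

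**Figure D4:**
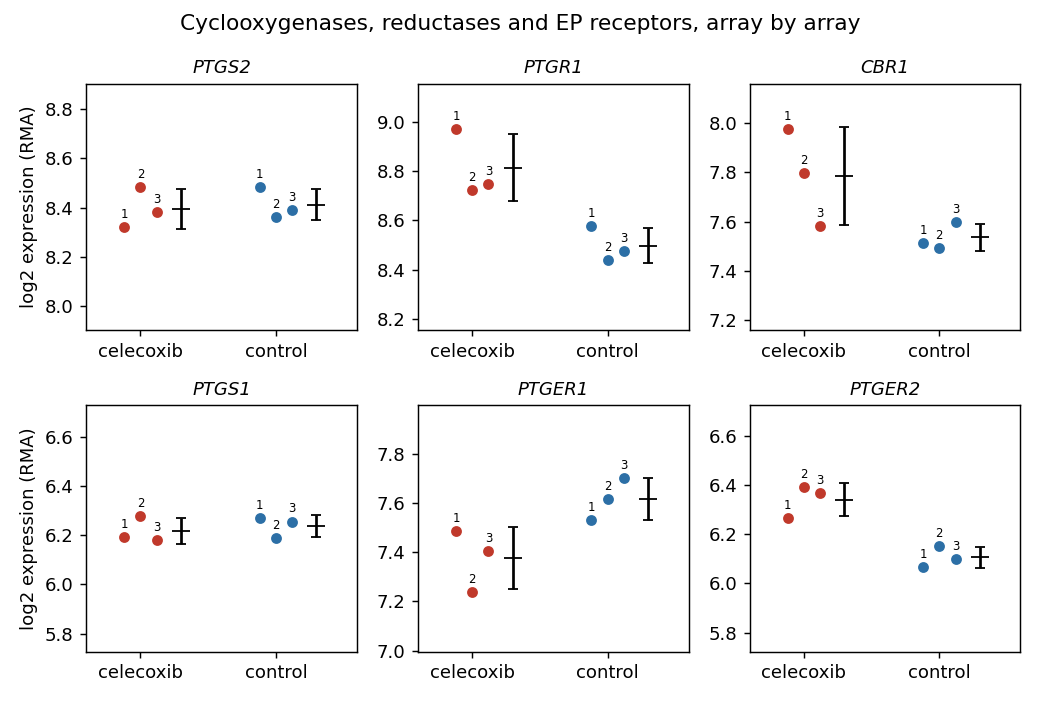
Log2 expression of PTGS2, PTGR1, CBR1, PTGS1, PTGER1 and PTGER2 on each array, numbered by replicate, with celecoxib left of control. Black marks are the mean and SD of 3 arrays, and each panel spans 1 unit on the log2 scale, not starting at 0. PTGS2 and PTGS1 overlap between the groups, PTGR1 and PTGER2 lie higher and PTGER1 lower with celecoxib, and CBR1 overlaps.

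The other 2 genes with separated groups belong to the leukotriene route. LTA4H differed by 0.14 ± 0.07 (limma adjusted p = 0.494) and ALOX5 by -0.13 ± 0.07 (adjusted p = 0.501). Both 95% intervals held 0, from -0.025 to 0.301 for LTA4H and from -0.285 to 0.028 for ALOX5. Those of the remaining lipoxygenases and leukotriene receptors held 0 as well, with differences from -0.14 (CYSLTR1) to 0.04 (ALOX15).

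Further genes of the pathway, outside the 47, were read from a fixed list. Of 36 measured (40 listed), 15 were higher and 21 lower, with a median of -0.01, and 0 passed. SLCO3A1, an organic anion carrier that takes up prostaglandins, measured 7.58, 7.71 and 7.59 with celecoxib, against 7.93, 8.11 and 7.77 in controls. The groups were apart, with a difference of -0.31 ± 0.10 (limma adjusted p = 0.33). In the whole list they were apart in 2 genes with lower values (5.56%, beside 7.95% of all genes), SLCO3A1 and GPR31. With higher values they were apart in 3 (8.33%, beside 11.1%), PLA2G15, PLA2G12B and AKR1C3. Among genes above the olfactory receptor range, the phospholipases PLA2G15 and PLA2G5 and the epoxygenase CYP2J2 followed in p, at 0.12 ± 0.07, 0.14 ± 0.08 and 0.15 ± 0.09. Within that range, CYP4F8 (-0.22 ± 0.11) and PLA2G4D (-0.18 ± 0.09) had smaller p than these. Without celecoxib array 1, CYP2J2 differed by 0.07. AKR1C3, a prostaglandin F synthase whose family array probes separate poorly, was within the olfactory receptor range and differed by 0.28 ± 0.10 (adjusted p = 0.357). Of the microsomal glutathione transferases that can make leukotriene C4, MGST2 had a mean of 9.18 and MGST3 of 12.44, with differences of 0.13 ± 0.11 and 0.12 ± 0.09. Both were highest on celecoxib array 1, and without it both differences were 0.03.

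Genes that store arachidonate in lipids or free it by other routes were a second list. Of 14 measured (16 listed), 4 were higher and 10 lower, where 52.1% of all genes were lower. The median was -0.05, beside -0.01 over all genes, and 0 passed. The summed log2 level of the 14 was 102.20 to 102.56 with celecoxib and 103.04 to 103.77 in controls. The 3 genes described next had the largest differences among the 14. With single arrays left out, the median of the 14 ran from -0.07 (without control 1) to -0.014 (without celecoxib 2). Over all genes the median without celecoxib 2 was 0.006. MGLL, the lipase that frees arachidonic acid from 2-arachidonoylglycerol, measured 7.01, 7.40 and 7.35 with celecoxib, against 7.74, 7.89 and 7.62 in controls. DAGLA, which makes 2-arachidonoylglycerol, measured 6.996, 7.04 and 6.88 with celecoxib, against 7.16, 7.16 and 7.17 in controls. MBOAT7, which places arachidonate in phosphatidylinositol, measured 10.23, 10.31 and 10.32 with celecoxib, against 10.38, 10.48 and 10.48 in controls. All 3 genes were lower on every celecoxib array than on any control. They are 21.4% of the 14, beside 7.95% of all genes, and 0 of the 14 had all celecoxib values higher, beside 11.1%. The list was chosen with earlier results of these data known, so these shares are description and no support for a change. The differences were -0.50 ± 0.12 for MGLL (limma adjusted p = 0.226), -0.19 ± 0.07 for DAGLA (adjusted p = 0.383) and -0.16 ± 0.07 for MBOAT7 (adjusted p = 0.44). Without celecoxib array 1, its lowest, MGLL differed by -0.38. Among genes above the olfactory receptor range, ACSL1, which activates long-chain fatty acids, was the next by p, at -0.12 ± 0.11. It differed by -0.02 without celecoxib array 3 and by -0.05 without control 1.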

How the data were processed

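Log2 expression values of 33297 transcript clusters on 6 arrays were deposited by the authors. RMA and Affymetrix Expression Console 1.1 are named, per the submitters' processing notes, and nothing further is stated on how they were run. Clusters were named from the platform annotation: 19460 had 1 symbol, 1754 several and 12083 none. Where a gene had several clusters, the one with the highest mean stood for it, leaving 18417 genes. The 3 celecoxib and 3 control arrays were compared in R 4.3.3 by limma 3.58.1 (lmFit, then eBayes), two-sided, with Benjamini-Hochberg adjustment over all genes, and the procedure was tested on simulated data. The number of arrays limits the precision. No slide or scan date was given, so no batch was tested. Promoters came from a RefSeq table of GRCh38.p14. Python 3.11.15 with matplotlib 3.10.9 made the plots.

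Values on each array are given for PTGS1, PTGS2, members above the olfactory receptor range and members with an unadjusted p under 0.05; from the other lists, up to 4 genes above that range with the smallest p are named. The 250 bases of PTGS2, CBR1 and PTGER2, and PLA2G10, AKR1C3, PTGES3, MGST2, MGST3 and KHSRP, were chosen after their values were seen. The members and lists were chosen with earlier results of these data known. Whether replicate numbers pair the arrays is not known, and they were not used as a pairing.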

Additional observations from a re-analysis of the deposited data

How the results depend on the processing

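No eicosanoid gene was called under any of 16 alternatives, the smallest adjusted p being 0.0784 (PTGER2, limma with array weights); over all genes 26 were called, and between 0 and 177 under the alternatives. The 644 recomputed differences of the members made no call. Of these, 35, in 18 members, had the opposite sign to the value reported; PTGS2 ranged from -0.06 to 0.02, and PTGR1, CBR1, PTGER1 and PTGER2 kept their signs. The members' median lay between -0.036 and 0.014 over all alternatives. Without each array in turn, genes with groups apart numbered 4 to 7 higher and 2 to 8 lower; over all genes the share apart was then 13.7% to 17.8% higher and 11.8% to 14.9% lower, and the members' shares were 9.52% to 16.7% and 4.76% to 19%. With each array centred on its median, 5 were higher (11.9%, beside 15.1% of all genes) and 1 was lower (2.38%, beside 4.54%). Leaving out arrays for the other lists, and restricting promoters to outer starts, were chosen after seeing the data. With the replicate number as a block, 0 members were called (smallest limma adjusted p 0.251) and 0 genes in all, where 2448 had an unadjusted p under 0.05. Deviations of same-numbered arrays correlated at -0.017, 0.494 and 0.012, and those of differently numbered arrays at -0.493 to 0.408. These values do not settle whether the number is a pairing, and it was not taken as one. The count above background was 28 at the 90th and 19 at the 99th percentile of olfactory receptor genes, 22 array by array, and 6 against keratin-associated protein genes. Signal over background of single clusters was not known.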

Other observations

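Other lists around prostaglandin signalling were read, with no gene past the threshold in either. Both were chosen with earlier results of these data known, so their shares beside all genes are description only. Among targets of cAMP signalling downstream of the E2 receptors, 12 were measured, with 6 higher and 6 lower. The nuclear receptor NR4A2 measured 6.63, 6.54 and 6.71 with celecoxib, against 6.34, 6.45 and 6.16 in controls, a difference of 0.31 ± 0.09 (limma adjusted p = 0.318). NR4A2 was dim, at a mean of 6.47, and stood above its own array's olfactory receptor percentile on 3 celecoxib and 2 control arrays. Its relative NR4A1 measured 7.38, 7.45 and 7.46 with celecoxib, against 7.52, 7.53 and 7.61 in controls, a difference of -0.12 ± 0.07 (limma adjusted p = 0.513). The phosphatase DUSP1 differed by -0.26 ± 0.07 (adjusted p = 0.301) and FOS by 0.18 ± 0.11 (adjusted p = 0.546). Without celecoxib array 1, FOS differed by 0.07. The groups were apart in 1 gene with higher values, NR4A2 (8.33%, beside 11.1% of all genes), and in 3 with lower values, NR4A1, DUSP1 and the clock gene PER1 (25%, beside 7.95%). PER1 (-0.08 ± 0.07) was chosen after its values were seen.

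Among 16 regulators of PTGS2 transcription and of the stability of its transcript, 2 were higher and 14 lower with celecoxib, where 52.1% of all genes were lower, with a median of -0.12 beside -0.01 over all genes. Their summed log2 level was 134.58, 140.36 and 138.64 with celecoxib, against 140.69, 142.39 and 138.65 in controls, lowest on celecoxib array 1. Without that array 13 were lower and the median was -0.09, and without control 2 they were 12 and -0.07. The RNA-binding protein KHSRP measured 8.18, 9.33 and 9.03 with celecoxib, against 9.36, 9.67 and 9.07 in controls. ZFP36L2, a factor that promotes decay of AU-rich transcripts, measured 8.97, 10.12 and 9.89 with celecoxib, against 10.26, 10.497 and 9.97 in controls. Both were lowest on celecoxib array 1, and the groups overlapped. Groups were apart in 1 of the 16 with lower values, JUN (6.25%, beside 7.95% of all genes), and in 1 with higher values (6.25%, beside 11.1%). JUN differed by -0.32 ± 0.12 (limma adjusted p = 0.374), ZFP36L1 by -0.31 ± 0.13 (adjusted p = 0.429) and HNRNPD by -0.23 ± 0.11 (adjusted p = 0.482). Without celecoxib array 1 the differences were -0.20 for JUN, -0.18 for ZFP36L1, -0.11 for HNRNPD, -0.19 for KHSRP and -0.23 for ZFP36L2.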
